A study of Rattus norvegicus with 15 samples.

Results

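The core circadian clock genes were followed in rat retinas after cell transplantation and chemical injury. The members were chosen by symbol: Arntl (also called Bmal1), Clock, Npas2, Per1, Per2, Per3, Cry1, Cry2, Nr1d1 and Dbp. These are 10 of the 20375 genes listed, each symbol matched 1 row, and all 10 passed the filter on low values with 15424 genes tested in all. Whole retinas of wild-type Sprague-Dawley rats, given as postnatal week 12, were sequenced as mRNA in 15 libraries, 3 in each of 5 groups. NT rats were healthy and untreated. The Sham, MSC, MSCEPO and DPSC groups all received systemic sodium iodate (NaIO3) at 40 mg/kg, an oxidant that damages the retinal pigment epithelium. Sham eyes were injected intravitreally with the buffered saline vehicle, MSC eyes with human mesenchymal stem cells from Wharton's jelly, and MSCEPO eyes with such cells made to express erythropoietin through a lentivirus. The cells of the DPSC group are named by that abbreviation alone. The study's methods place the injection of the MSC and MSCEPO cells some days before the sodium iodate. The labels place collection at day 31 after transplantation. The MSC, MSCEPO and DPSC groups also received dexamethasone at 2 mg/kg before surgery and cyclosporin at 10 mg/kg per day after it. In these groups the drugs and the cells therefore cannot be told apart. As NT was untreated, the sodium iodate and the eye injection cannot be told apart in Sham, MSC or MSCEPO against NT. The study's methods also describe eyedrops containing dexamethasone after the intravitreal injection, without naming the groups. The hour of collection is not given in the sources used here, so that a difference in time of day and a difference between groups cannot be told apart either. The study's methods describe a fixed light and dark cycle, broken by overnight dark adaptation before tests of the retina's electrical response to light. Those tests continued up to the study's end.

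The circadian clock is a feedback loop of transcription. Arntl pairs with Clock or Npas2 and switches on the Per and Cry genes through E-boxes, and the PER and CRY proteins then shut the pair down. Nr1d1 (REV-ERBα) is switched on by the same pair and represses Arntl through ROR elements (ROREs), while Dbp is an output factor that acts through D-boxes. The retina holds such a clock of its own, which is known to time dopamine and melatonin signals and the sensitivity to light. In a running clock Arntl peaks at the opposite time of day from Nr1d1, Dbp and the Per genes, so that levels depend on when the tissue is taken.

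The windows of the 3 members with both a lower level in the tests and an entry in the sequence table are shown because the motifs of the loop can be read in genes that fell. Each is the 250 bases before the transcription start from RefSeq (build GRCr8), read on the gene's strand, with matches to the clock motifs in capitals. Of the 10 members 9 had an entry, with 11 windows, and Cry1 had none.
Arntl, chr1:176766078-176766327, plus strand: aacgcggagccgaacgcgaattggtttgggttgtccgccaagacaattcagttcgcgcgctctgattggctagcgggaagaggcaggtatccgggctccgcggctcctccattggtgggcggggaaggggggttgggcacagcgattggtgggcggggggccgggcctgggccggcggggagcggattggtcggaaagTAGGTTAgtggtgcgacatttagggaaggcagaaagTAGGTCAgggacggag
Per2, chr9:99496994-99497243, minus strand: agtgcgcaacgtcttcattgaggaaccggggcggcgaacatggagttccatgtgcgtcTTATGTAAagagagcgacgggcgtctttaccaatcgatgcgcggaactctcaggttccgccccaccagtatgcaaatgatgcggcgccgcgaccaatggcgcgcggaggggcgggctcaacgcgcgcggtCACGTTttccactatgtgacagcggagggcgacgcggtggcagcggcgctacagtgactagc
Cry2, chr3:98860438-98860687, minus strand: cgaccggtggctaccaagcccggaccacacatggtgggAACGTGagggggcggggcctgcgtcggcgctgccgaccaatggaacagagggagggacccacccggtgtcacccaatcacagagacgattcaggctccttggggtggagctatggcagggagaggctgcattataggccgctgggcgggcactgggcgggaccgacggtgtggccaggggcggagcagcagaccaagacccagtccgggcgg
The motifs searched, on both strands, were the E-box CACGTG, the E-prime box CACGTT, the D-box TTATGTAA, the RORE TAGGTNA and the cAMP response element TGACGTCA. The Arntl window held 2 ROREs, beginning 52 and 16 bases before the start. The Per2 window held an E-prime box 62 bases and a D-box 192 bases before the start, and the Cry2 window an E-prime box on the opposite strand 212 bases before it. Among the other windows, the 2 of Nr1d1 held an E-prime box at 174 and an E-box at 191 bases before the start, and those of Clock, Npas2, Per1, Per3 and Dbp held none of these motifs. Of 33469 RefSeq windows of this length, 7.55% held the RORE, 5.59% the E-box, 4.07% the E-prime box, 1.59% the cAMP response element and 0.828% the D-box. Such matches describe letters and not bound sites.

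The values are regularized log (rlog) values on a log2 scale, which the authors corrected for library size and which are shrunken toward each gene's mean, so differences between groups are understated and levels of different genes are not compared. Library medians over the tested genes ranged from 8.63 to 8.82, and depth is unknown from the values. MSCEPO replicate 3 lay farthest from its own group over all listed genes (mean Euclidean distance of the rlog values 91.0) and MSC replicate 1 next (73.3), against 29.9 to 68.9 for the other 13. The counts of clock genes called are therefore also given without both. All 7 rod markers, all 7 cone markers and all 6 bipolar markers were among the genes tested.

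**Figure D1:**
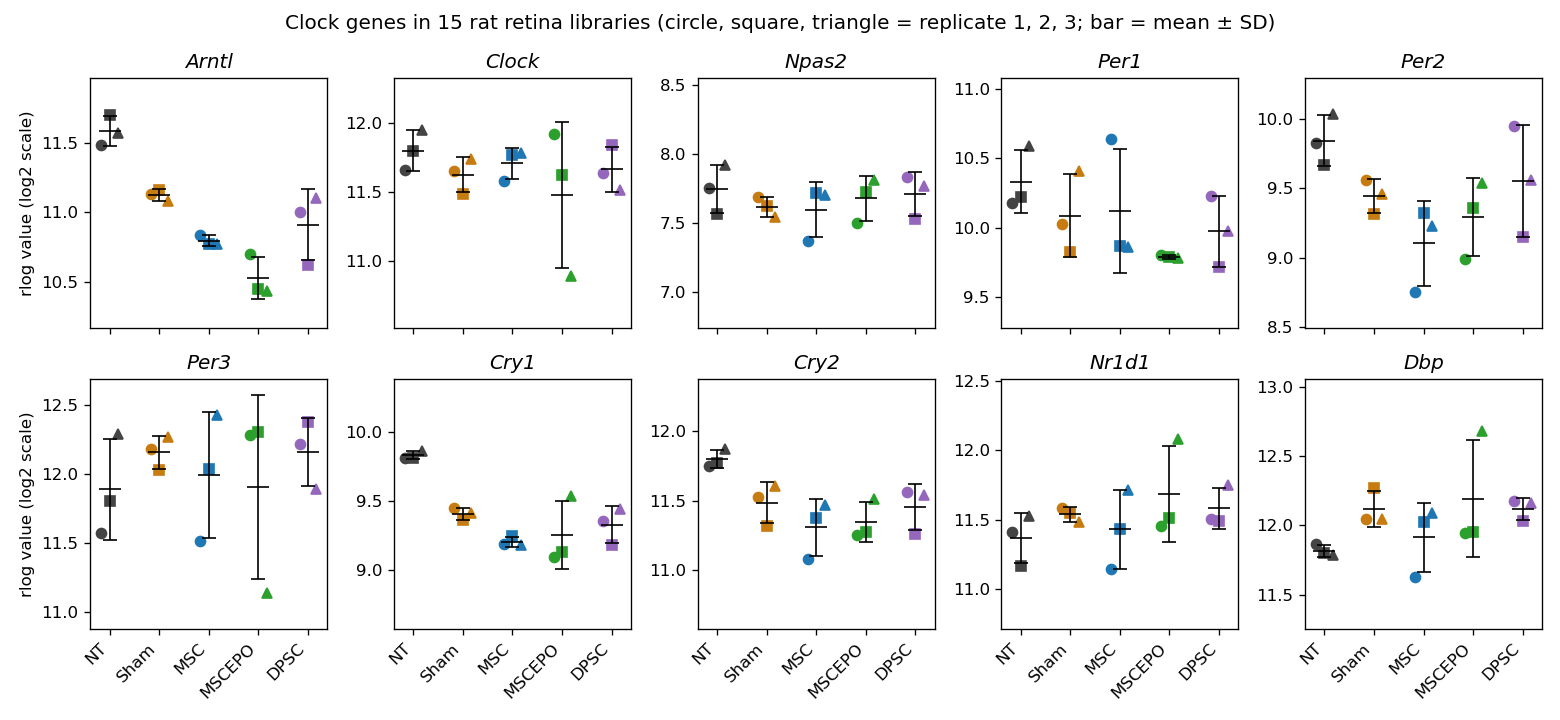
Level of each of the 10 clock genes (rlog value, log2 scale) in the 15 libraries, by group; circles, squares and triangles are replicates 1, 2 and 3, bars are the mean ± SD (n = 3), and every panel spans the same height. Arntl and Cry1 of NT lie above all 12 other libraries, and the low Clock and Per3 values of the MSCEPO group belong to replicate 3.

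Arntl (ENSRNOG00000014448), the partner shared by Clock and Npas2, was the clock gene with the clearest group pattern. It fell in the MSC, MSCEPO and DPSC groups against NT. Its level was 11.49, 11.70 and 11.57 in the NT libraries, 11.13, 11.17 and 11.08 in Sham, and 11.00, 10.62 and 11.11 in DPSC. It was 10.84, 10.77 and 10.77 in MSC and 10.70, 10.45 and 10.43 in MSCEPO. NT did not overlap with any other group, MSC lay wholly below Sham, and MSCEPO lay wholly below MSC, while DPSC spanned Sham and MSC. The means fell in the order NT (11.59 ± 0.11, SD, n = 3), Sham (11.13 ± 0.04), DPSC (10.91 ± 0.26), MSC (10.79 ± 0.04) and MSCEPO (10.53 ± 0.15), and no neighbours in this order differed at an adjusted p under 0.05.

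In MSCEPO the difference of Arntl from NT was -1.06 (SE 0.12), a ratio of 0.480, with an adjusted p of 0.000219 by limma. This was the only difference of a clock gene over 2-fold in the 10 comparisons, in a comparison where 3.57% of all genes were called and over 2-fold. In MSC it was -0.79 (SE 0.12, adjusted p = 0.00158), and in DPSC -0.68 (SE 0.12, adjusted p = 0.011). The DPSC call was lost without NT replicate 2 (adjusted p = 0.0587) or NT replicate 3 (0.0506), whereas those of MSC and MSCEPO held with any 1 of their 6 libraries left out. In Sham it was -0.46 (SE 0.12, 95% interval -0.72 to -0.20), with an adjusted p of 0.104 that did not pass. Over the 5 groups at once, Arntl ranked 82 of 15424 genes in limma's F test (adjusted p = 0.00213).

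The other partners of the activating pair showed no call in any comparison. Clock (ENSRNOG00000002175), the histone-modifying subunit, lay between 11.49 and 11.95 in 14 of 15 libraries and at 10.89 in MSCEPO replicate 3. The 95% intervals of its differences from NT reached from -0.76 to 0.345 over the 4 injured groups. Npas2 (ENSRNOG00000013408), which can stand in for Clock, stayed within 7.37 to 7.92 in all 15 libraries, with intervals from -0.45 to 0.26. Arntl therefore fell in 3 groups in which neither of its partners passed the test, and the difference between Arntl and its partners was not itself tested.

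Both cryptochromes, the repressors that bind the Arntl and Clock pair, fell in MSC and MSCEPO. Cry1 (ENSRNOG00000006622) was at 9.81, 9.81 and 9.86 in NT and at 9.45, 9.36 and 9.41 in Sham. It was at 9.19, 9.25 and 9.18 in MSC, at 9.09, 9.13 and 9.54 in MSCEPO, and at 9.36, 9.18 and 9.44 in DPSC. All 12 injured libraries were below all 3 NT libraries, and MSCEPO replicate 3 was the highest of the 12. Its difference from NT was -0.62 in MSC (SE 0.11, adjusted p = 0.00367) and -0.57 in MSCEPO (adjusted p = 0.00647), and both were called with any 1 of their 6 libraries left out. In DPSC it was -0.50 (adjusted p = 0.0343), and this call was lost without NT replicate 1 (0.108), NT replicate 2 (0.105), NT replicate 3 (0.134), DPSC replicate 1 (0.0833) or DPSC replicate 2 (0.154). In Sham it was -0.42 with an adjusted p of 0.114. Cry1 was the only other clock gene called in the F test (adjusted p = 0.0231), a test that called 6.22% of all genes.

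Cry2 (ENSRNOG00000007478) was at 11.75, 11.77 and 11.88 in NT and at 11.08, 11.38 and 11.47 in MSC. It was at 11.25, 11.28 and 11.51 in MSCEPO, at 11.53, 11.32 and 11.60 in Sham, and at 11.56, 11.26 and 11.54 in DPSC. NT lay above every other library. The difference from NT was -0.49 (SE 0.13, adjusted p = 0.0181) in MSC and -0.45 (SE 0.13, adjusted p = 0.0338) in MSCEPO, against -0.35 (adjusted p = 0.172) in DPSC and -0.32 (adjusted p = 0.31) in Sham. The MSC call was lost without NT replicate 2 (adjusted p = 0.0511), NT replicate 3 (0.0714) or MSC replicate 1 (0.0701). The MSCEPO call was lost without NT replicate 1 (0.0756), 2 (0.0858) or 3 (0.124), or MSCEPO replicate 1 (0.0886) or 2 (0.1).

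Of the period genes, which encode the partners of the cryptochromes in the repressor, Per2 fell in MSC. Per2 (ENSRNOG00000020254) was at 9.82, 9.67 and 10.04 in NT and at 8.75, 9.32 and 9.23 in MSC. It was at 9.56, 9.32 and 9.46 in Sham, at 8.99, 9.36 and 9.54 in MSCEPO, and at 9.95, 9.15 and 9.56 in DPSC. NT lay above Sham, MSC and MSCEPO without overlap, whereas DPSC replicate 1 reached into its range. The MSC difference was -0.74 (SE 0.21, adjusted p = 0.0297), and without MSC replicate 1, the lowest of the 15, it was -0.57 and lost its call (adjusted p = 0.117). It was also lost without NT replicate 1 (0.0761), 2 (0.0508) or 3 (0.113). In MSCEPO the difference was -0.55 (adjusted p = 0.114) and in Sham -0.40 (adjusted p = 0.49).

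Per1 (ENSRNOG00000007387), the period gene that light and glucocorticoids are known to induce, was at 9.80, 9.79 and 9.78 in MSCEPO, below all 3 NT libraries at 10.18, 10.22 and 10.59. This difference was -0.54 with an adjusted p of 0.126. MSC replicate 1 had the highest Per1 value of the 15 libraries, 10.64, against 9.87 and 9.86 in the other MSC libraries. Per3 (ENSRNOG00000018413) varied most inside the groups (pooled SD 0.41), from 11.14 in MSCEPO replicate 3 to 12.42 in MSC replicate 3, and the intervals of its differences from NT ran from -0.64 to 0.93. Neither gene was called in any comparison.

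Nr1d1 and Dbp, which the pair also switches on, were not called in any comparison. Nr1d1 (ENSRNOG00000009329), the repressor of Arntl, ranged from 11.14 in MSC replicate 1 to 12.08 in MSCEPO replicate 3, with intervals against NT from -0.32 to 0.69. Dbp (ENSRNOG00000021027) was at 11.87, 11.80 and 11.79 in NT and at 12.05, 12.27 and 12.04 in Sham. It was at 11.95, 11.95 and 12.68 in MSCEPO, at 12.17, 12.03 and 12.16 in DPSC, and at 11.63, 12.02 and 12.09 in MSC. The Sham, MSCEPO and DPSC libraries all lay above NT, and MSC overlapped with it through replicate 1. The differences from NT were 0.30 (adjusted p = 0.556) in Sham, 0.38 (0.192) in MSCEPO and 0.30 (0.428) in DPSC, and none passed.

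**Figure D2:**
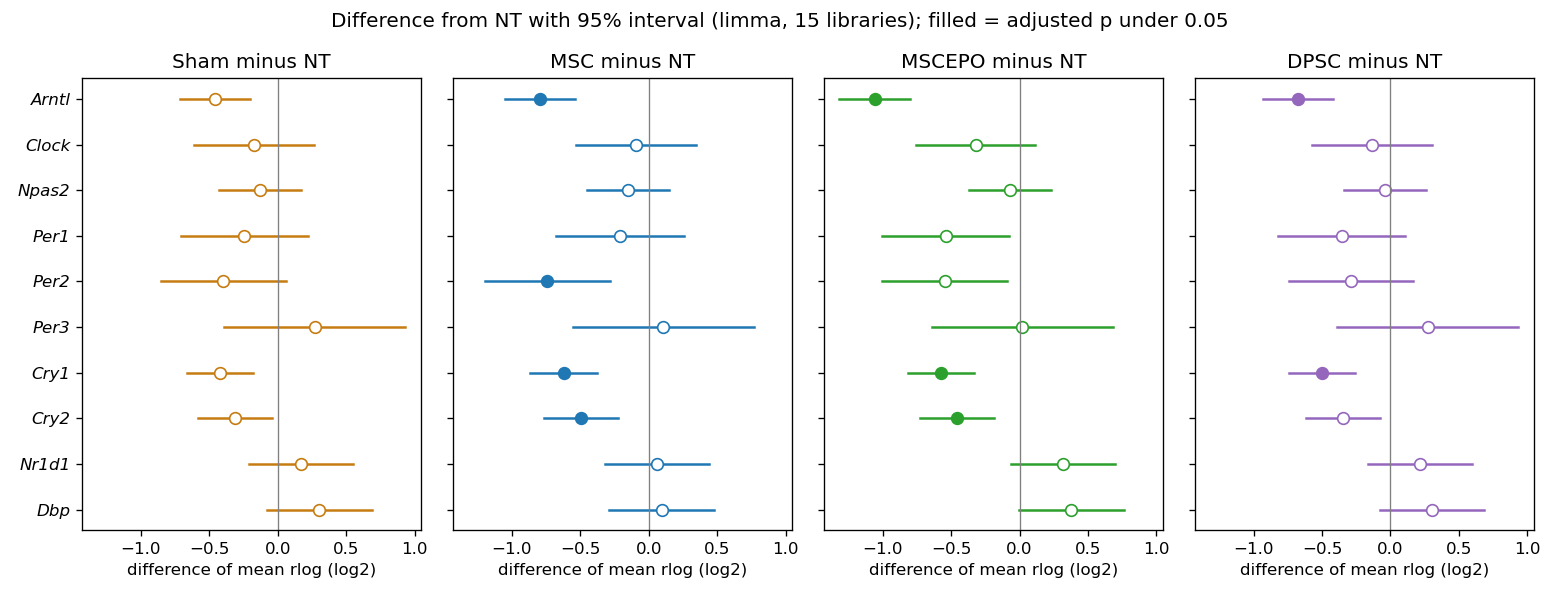
Difference of the mean rlog value from NT (log2) for each clock gene in the Sham, MSC, MSCEPO and DPSC groups, with 95% intervals from the limma fit of 15 libraries; filled points have an adjusted p under 0.05 over all 15424 genes. The filled points are Arntl and Cry1 in 3 groups, Cry2 in MSC and MSCEPO, and Per2 in MSC, and all 9 lie below 0.

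Only a part of the 10 clock genes was called lower than NT, and 0 were called higher. In MSC against NT 4 of 10 members were called, all lower, where 17.4% of all tested genes were called and 6.37% were called lower. In MSCEPO against NT 3 were called, all lower, beside 11.6% of all genes and 5.81% lower. In DPSC against NT 2 were called, both lower, beside 2.85% of all genes and 1.41% lower. In Sham against NT 0 of 10 were called by limma beside 0.888% of all genes, with 3 members (Arntl, Cry1 and Cry2) at an unadjusted p under 0.05 beside 12.4% of all genes. In that comparison 5 members did not overlap between the groups, beside 31.9% of all genes. The corresponding counts were 4 in MSC (44.1%), 6 in MSCEPO (31.4%) and 4 in DPSC (31.7%). Those in MSC and DPSC were near the share of all genes. Those in Sham, MSCEPO and DPSC include Dbp, which was higher than NT. The median difference of the 10 from NT was -0.21 in Sham, -0.18 in MSC, -0.39 in MSCEPO and -0.21 in DPSC, while the median of all genes was within 0.01 of 0 in each. Without regard to sign, the median of the 10 was 0.29 in Sham, 0.18 in MSC, 0.42 in MSCEPO and 0.30 in DPSC. For all genes it was 0.13, 0.21, 0.21 and 0.16, so that in MSC the members moved less than the median gene. The 4 comparisons share the NT libraries and are not independent.

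Without MSCEPO replicate 3 and MSC replicate 1, an alternative chosen after seeing the data, the calls against NT were 3 in Sham (Arntl and Cry1 lower, Dbp higher), 3 in MSC, 4 in MSCEPO and 4 in DPSC. More genes were called in all as well, 4.92% of those tested in Sham, 22.3% in MSC, 27.5% in MSCEPO and 12.1% in DPSC. The F test called 3 members (Arntl, Cry1 and Cry2) in place of 2, beside 16.1% of all genes, and 0 were called against Sham or between the cell groups. Neither library belongs to Sham or NT, whose differences stayed the same (-0.46 for Arntl). The SE became 0.07 in place of 0.11 for Cry1 and 0.07 in place of 0.18 for Dbp, while that of Arntl stayed at 0.12. In this alternative the adjusted p in Sham against NT was 0.049 for Arntl, 0.0122 for Cry1 and 0.0432 for Dbp. Fitting the NT and Sham libraries alone also called Arntl (adjusted p = 0.0151) and Cry1 (0.0127) there. The calls of Sham against NT thus differed with the libraries that entered the fit.

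Transplanted groups were next compared with Sham, which sets injured retinas with the cells and their drugs against injured retinas with vehicle. Since the MSC and MSCEPO cells came before the injury, a change in the injury and another effect of the cells cannot be told apart. By limma 0 clock genes were called in MSC against Sham (0% of all genes called), 0 in MSCEPO against Sham (0.0259%) and 0 in DPSC against Sham (0.0195%), with 1, 1 and 0 members at an unadjusted p under 0.05 beside 13.3%, 8.31% and 2.37% of all genes. Arntl was that member in both cases. Its difference from Sham was -0.33 in MSC (95% interval -0.59 to -0.08, adjusted p = 0.229) and -0.60 in MSCEPO (-0.86 to -0.34, adjusted p = 0.114), and neither pair of groups overlapped. The MSCEPO value ranked 31 of 15424 genes by p. Without overlap were 2 members in MSC against Sham, beside 24.5% of all genes, and 2 in MSCEPO against Sham, beside 14.3%. Cry1 of MSC lay wholly below Sham (-0.20, adjusted p = 0.48), and Per1 of MSCEPO did so too (-0.30, adjusted p = 0.724). Since almost no gene passed in these comparisons, the 0 calls do not set the clock genes apart from other genes. The study, with DESeq2 and its 2-fold rule, did report genes higher and lower in MSC and in MSCEPO against Sham. The reason for this difference was not tested.

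Between the cell types 0 clock genes were called by limma in MSCEPO against MSC, in DPSC against MSC and in DPSC against MSCEPO, comparisons in which 0% of all genes were called. The 0 calls here therefore do not set the clock genes apart either. Of the 10 members 1, 0 and 1 had an unadjusted p under 0.05, beside 3.79%, 7.02% and 2.48% of all genes, and it was Arntl each time. Arntl was lower by -0.27 in MSCEPO than in MSC (interval -0.52 to -0.01, adjusted p = 0.754), without overlap, beside 4.09% of all genes that did not overlap. It was 0.38 higher in DPSC than in MSCEPO (adjusted p = 0.996), and those groups overlapped. Per1 of MSCEPO lay below MSC without overlap (-0.33, adjusted p = 0.754).

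Rod photoreceptors, the most abundant cells of the rat retina, moved in the same order as Arntl. In whole tissue, fewer cells of a type and less RNA per cell cannot be told apart. The mean of 7 rod markers (Gnat1, Pde6a, Pde6b, Cnga1, Nrl, Nr2e3 and Sag), relative to NT, was -0.87 to -0.60 in Sham, -1.50 to -0.76 in DPSC, -1.45 to -1.27 in MSC and -1.70 to -1.39 in MSCEPO. Against NT 1, 6, 7 and 7 of the 7 were called lower in these groups in that order, and none was at 0. Of all tested genes 0.888%, 2.85%, 17.4% and 11.6% were called in the same comparisons. DPSC replicate 2, the DPSC library with the lowest rod marker level, also had the lowest Arntl and Cry1 of that group. In MSCEPO replicate 3 the orders parted, since its rod level was the highest of its group, its Cry1 the highest and its Arntl the lowest. The part of rod loss in the levels of Arntl and Cry1 was not tested.

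**Figure D3:**
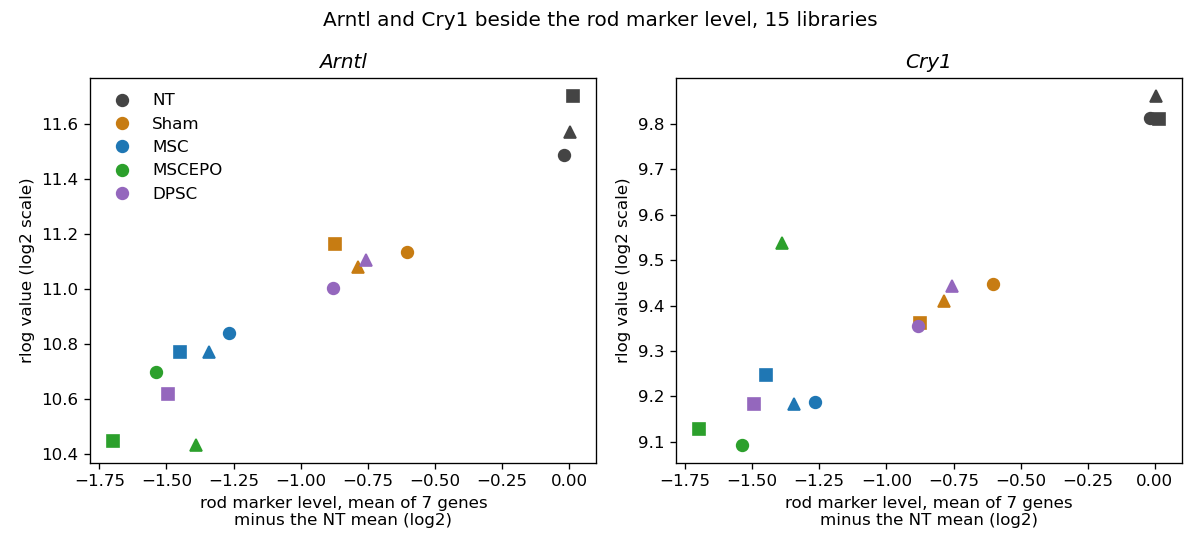
Arntl (left) and Cry1 (right), rlog value on a log2 scale, against the rod marker level (mean of 7 genes minus the NT mean, log2) in the 15 libraries; colours are the groups and circles, squares and triangles are replicates 1, 2 and 3. NT libraries sit at the upper right, MSC and MSCEPO at the lower left, and MSCEPO replicate 3 stands above its group in Cry1 at a rod level of -1.39.

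Markers of other cells moved with the same groups. The counts called against NT below stand beside 0.888% of all genes in Sham, 17.4% in MSC, 11.6% in MSCEPO and 2.85% in DPSC. The 7 cone markers lay at -0.33 to -0.24 relative to NT in Sham, -0.86 to -0.41 in MSC, -1.05 to -0.46 in MSCEPO and -0.76 to -0.46 in DPSC, with 0, 2, 2 and 1 called lower. The 8 microglia and macrophage markers lay at 0.81 to 1.68 in Sham, 2.05 to 3.69 in MSC, 1.61 to 2.60 in MSCEPO and 0.93 to 2.35 in DPSC, with 0, 8, 7 and 2 called higher. The 6 tested T and NK cell markers reached 3.56 in MSC replicate 1, the library with the lowest Per2 and the highest Per1, against 0.78 and 1.55 in the other MSC libraries. The 5 lens markers ranged from -0.75 to 3.64 in MSCEPO, highest in replicate 3, and from -0.85 to 5.57 in DPSC. The 4 reactive glia markers (Gfap, Vim, Lcn2 and Serpina3n) lay at 1.52 to 1.89 in Sham, 2.62 to 2.94 in MSC, 1.97 to 3.35 in MSCEPO and 1.82 to 2.27 in DPSC, with 2, 4, 4 and 3 called higher. The 5 retinal pigment epithelium markers lay at -1.35 to -0.84 in Sham, -2.56 to -0.36 in MSC, -1.64 to -0.45 in MSCEPO and -1.30 to -0.56 in DPSC, with 2 called lower in MSC, and 1 lower and 1 higher in MSCEPO. Of 5 Mueller glia markers 2 were called higher and 1 lower in MSC and 1 higher in MSCEPO, and of 5 ganglion cell markers 1 (Slc17a6) was called lower in MSC. By limma the 6 bipolar and 5 amacrine markers had 0 calls against NT in any group. At an unadjusted p under 0.05 were 0 of either list in Sham and DPSC, beside 12.4% and 16.8% of all genes. In MSC and MSCEPO 0 to 2 of a list were at an unadjusted p under 0.05. The part of these cells in the clock gene levels was not tested.

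Beyond the 10 members, 21 further genes of the clock were tested. Against NT 0 were called by limma in Sham (6 at an unadjusted p under 0.05, beside 12.4% of all genes), 2 higher and 3 lower in MSC (17.4% of all genes called), 2 higher and 4 lower in MSCEPO (11.6%), and 1 lower in DPSC (2.85%), with a median difference between -0.10 and -0.04 in each of the 4. Fbxl21, a ubiquitin ligase subunit that binds cryptochromes, fell in all 3 cell groups, by -0.62 in MSC (adjusted p = 0.00213), -0.80 in MSCEPO (0.000431) and -0.59 in DPSC (0.00906). Its levels were 10.14, 10.15 and 10.10 in NT and 9.41, 9.40 and 9.17 in MSCEPO. Fbxw11, a ubiquitin ligase subunit for PER proteins, rose by 0.44 in MSC (adjusted p = 0.00587) and 0.52 in MSCEPO (0.00291). These 5 calls held with any 1 of the libraries compared left out. In Sham Fbxl21 was at -0.42 (adjusted p = 0.0762) and Fbxw11 at 0.31 (0.133), both without overlap with NT and not called.

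Usp2, a rhythmic deubiquitinase, fell in MSC (-0.65, adjusted p = 0.0123) and MSCEPO (-0.72, 0.0101), and Csnk1e, a kinase of the PER proteins, fell in both as well (-0.46 in each, 0.0197 and 0.0273). Rorb, a retinoid-related orphan receptor that photoreceptors need, fell in MSCEPO (-1.05, 0.0181), with 9.59 in MSCEPO replicate 3 against 10.57 and 10.90 in the others, and without that library the difference was -0.67 (0.0109). Bhlhe40, a repressor at E-boxes, rose in MSC (0.74, 0.0164), with 11.49 in MSC replicate 1 against 10.70 and 10.56 in the others, and without that library the difference was 0.45 (0.0163). Tef, a D-box factor related to Dbp, rose in MSCEPO (0.38, 0.0434), with 12.04, 12.13 and 12.13 against 11.74, 11.66 and 11.76 in NT. Of these calls that of Usp2 in MSCEPO held with any 1 of its 6 libraries left out. That of Tef was lost with each of its 6 libraries left out in turn (highest adjusted p 0.14). Those of Csnk1e were lost with 4 of 6 in MSC and 5 of 6 in MSCEPO. Those of Rorb and Bhlhe40 were lost with 3, and that of Usp2 in MSC with 1. In Sham these genes lay on the same side of NT without a call. The differences there were -0.34 for Usp2, -0.33 for Csnk1e, -0.74 for Rorb, 0.23 for Bhlhe40 and 0.37 for Tef. Rorb was also at -0.72 in MSC and -0.68 in DPSC, not called.

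Of 13 retinal clock outputs and light input genes 11 were tested, since both melatonin receptors (Mtnr1a and Mtnr1b) were under the minimum. Against NT 0 were called by limma in Sham (3 at an unadjusted p under 0.05, beside 12.4% of all genes), 4 in MSC (17.4% of all genes called), 2 in MSCEPO (11.6%) and 1 in DPSC (2.85%), all lower. Pdc, the photoreceptor protein phosducin, was lower in each, with differences of -1.23 in MSC (adjusted p = 0.00164), -1.35 in MSCEPO (0.000864) and -0.97 in DPSC (0.0171). Opn4, which encodes melanopsin, the pigment of the ganglion cells that set the clock to light, was at 8.16, 8.49 and 8.42 in NT and 7.20, 7.20 and 7.28 in MSC. Its difference from NT was -1.13 in MSC (0.00288) and -0.87 in MSCEPO (0.0135). The dopamine receptors Drd4 (-1.44, 0.0312) and Drd1 (-0.51, 0.046) fell in MSC, and each of these 2 calls was lost with 5 of the 6 libraries left out in turn, Drd4 keeping it only without MSC replicate 1 and Drd1 only without MSC replicate 2 (highest adjusted p 0.116 and 0.168). Without MSC replicate 1 the difference of Drd1 was -0.32. The call of Pdc in DPSC was lost without any one NT library or without DPSC replicate 2 (highest adjusted p 0.0701), and that of Opn4 in MSCEPO without NT replicate 2 or 3 (highest 0.0583). Those of Pdc in MSC and MSCEPO and of Opn4 in MSC held with each of the 6 libraries left out. In Sham the differences from NT were -0.73 for Pdc, -0.43 for Opn4, -1.15 for Drd4 and -0.22 for Drd1, and none was called. Drd4 was also at -1.33 in MSCEPO and -0.91 in DPSC, not called. The melatonin enzymes Aanat and Asmt and the dopamine enzyme Th were not called in any comparison.

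Since dexamethasone was given, 8 glucocorticoid-responsive genes were read as well. Against NT 0 were called by limma in Sham and DPSC (1 in each at an unadjusted p under 0.05, beside 12.4% and 16.8% of all genes), 1 lower in MSC (17.4% of all genes called) and 2 lower in MSCEPO (11.6%). Sgk1 fell in MSC (-1.26, adjusted p = 0.0366) and MSCEPO (-1.34, 0.0366), and Klf9 in MSCEPO (-0.55, 0.0474), with 0 called higher in any comparison. Sgk1 was also the gene at an unadjusted p under 0.05 in Sham (-0.87, adjusted p = 0.36) and DPSC (-0.83, 0.286). The labels of Sham list no dexamethasone, but the study's methods describe dexamethasone eyedrops after the intravitreal injection, which Sham eyes also had. Whether Sham retinas were free of the drug is therefore not known. Klf9 was at -0.26 in both Sham and DPSC, not called. Klf9 was at 9.91 in MSCEPO replicate 3 against 10.57 and 10.45 in the others, and without that library its difference was -0.35 (0.0852). Each of these 3 calls was lost with 5 of its 6 libraries left out in turn, that of Sgk1 in MSC being kept only without MSC replicate 1 and those in MSCEPO only without MSCEPO replicate 1. Against Sham and between the cell groups, limma called 0 genes of the 3 lists, with 0 to 4 of a list at an unadjusted p under 0.05 in each comparison.

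**Figure D4:**
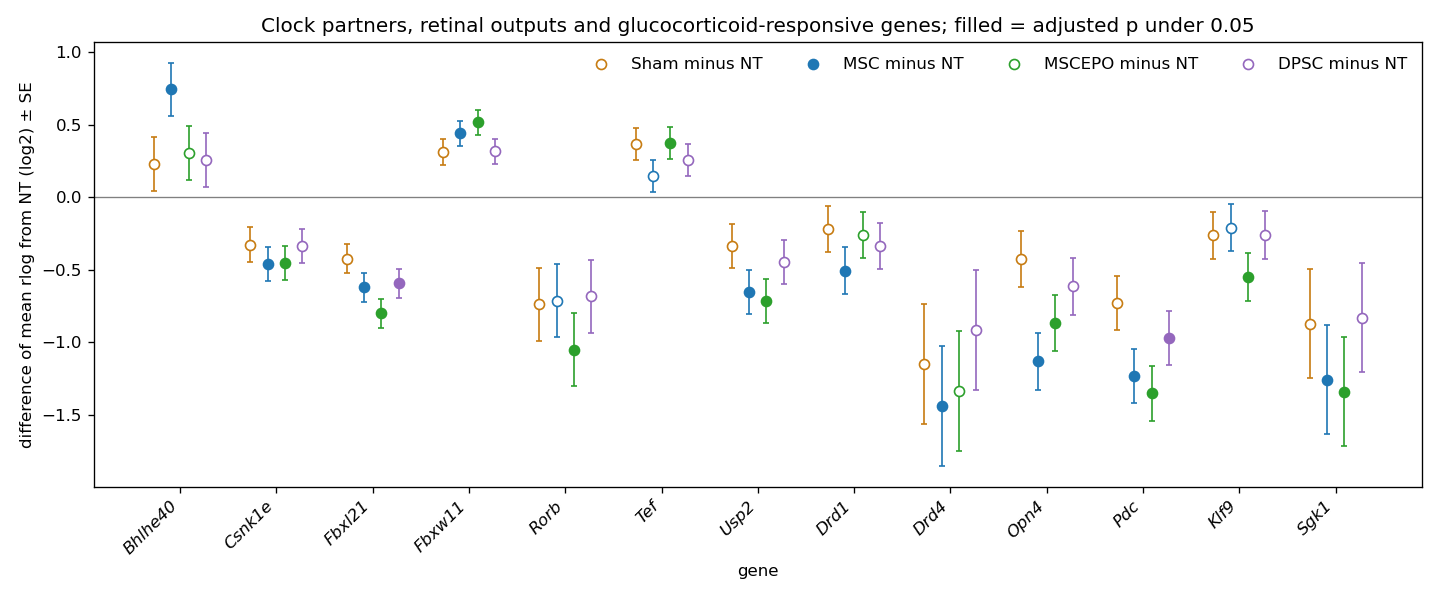
Difference from NT (log2 rlog, ± SE) of the further clock, retinal output and glucocorticoid-responsive genes called in at least 1 comparison, in the Sham, MSC, MSCEPO and DPSC groups; filled points have an adjusted p under 0.05 over all tested genes. Fbxl21 and Pdc are filled in all 3 cell groups, and no Sham point is filled. The Sham points of Fbxl21 (-0.42) and Pdc (-0.73) also lie below 0.

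Inside the groups the clock genes spread unevenly. The root mean square deviation of the 10 members from their group means was 0.39 in MSCEPO replicate 3 and 0.301 in MSC replicate 1, against 0.0594 to 0.253 in the other 13 libraries. MSCEPO replicate 3 was 0.77 under its group mean in Per3 and 0.58 under it in Clock, and 0.49 above it in Dbp, 0.40 in Nr1d1 and 0.28 in Cry1. MSC replicate 1 was 0.52 above its group mean in Per1 and under it by 0.47 in Per3 and 0.35 in Per2. Both libraries therefore stood apart in the clock genes as in all genes.

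**Figure D5:**
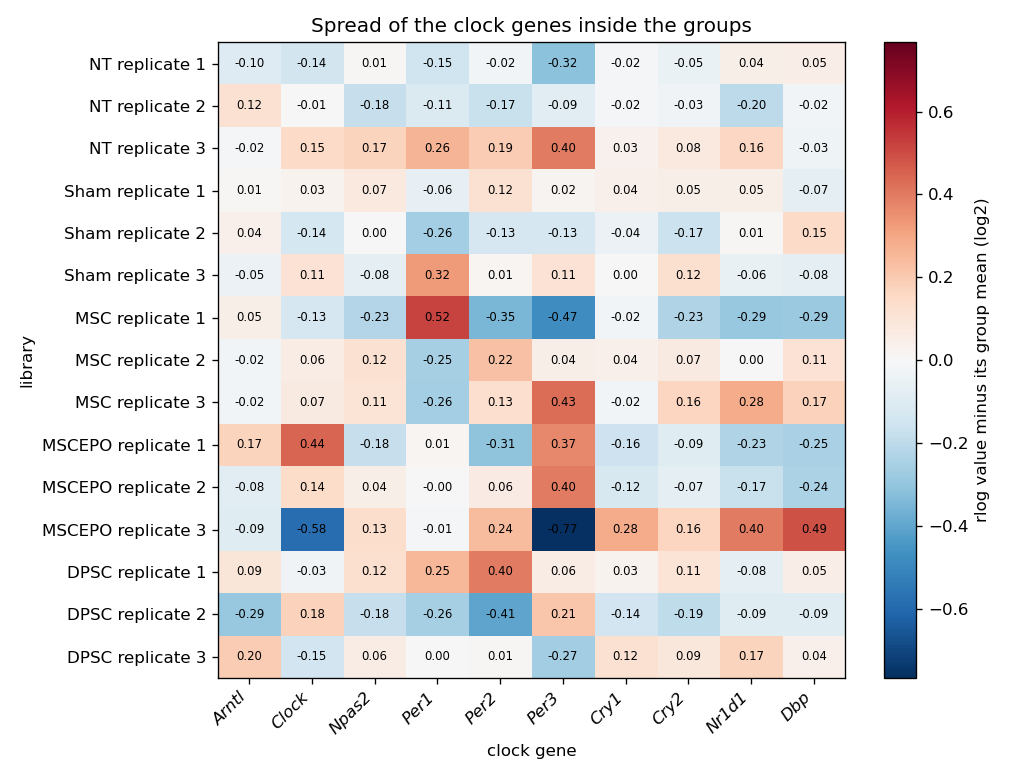
Deviation of each clock gene from its group mean (rlog, log2) in each of the 15 libraries; red is above and blue is below the mean, with the value in each cell. The strongest colours lie in MSCEPO replicate 3 (Clock -0.58, Per3 -0.77, Dbp 0.49) and MSC replicate 1 (Per1 0.52, Per3 -0.47).

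After centring on group means, no correlation of Arntl with another member passed the test over the 15 libraries. Pearson's r ran from -0.172 for Nr1d1 to 0.274 for Per1, and 0 of 9 relations passed (lowest adjusted p 0.916 over the 9 by 100000 permutations inside groups). Spearman's rho ran from -0.225 for Nr1d1 to 0.329 for Per1 (adjusted p = 0.928 for all 9). Without the libraries farthest from the median of Arntl (MSCEPO replicate 3 and NT replicate 2), r with Cry1 was 0.718 and its adjusted p 0.674. Without MSCEPO replicate 3 alone, r with Cry1 was 0.643. As an r of that size did not pass, the test does not show that Arntl and the others are unrelated. Other pairs are given as a description over libraries that share their normalization, with no test. The highest were Npas2 with Per2 (r = 0.916), Clock with Per3 (0.882), Nr1d1 with Dbp (0.836) and Per2 with Cry2 (0.827), and the lowest were Clock with Cry1 (-0.818) and Clock with Dbp (-0.712). Without MSCEPO replicate 3 these 6 were 0.906, 0.741, 0.665, 0.802, -0.328 and -0.0526, so that the negative relations of Clock rested on that library.

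Among 14480 tested genes with a symbol, those most like Arntl in the group-centred values were Cds1 (r = 0.92), Gnb1 (0.909), Opn1mw (0.907), Mmadhc (0.865) and Slc16a1 (0.853). Gnb1 encodes the beta subunit of rod transducin, Opn1mw a cone opsin and Slc16a1 a monocarboxylate transporter. Those most like Dbp were Tmem178a (0.96), Cabp2 (0.96), Kctd2 (0.958), Pdzd4 (0.955) and Fn3k (0.953), of which Cabp2 encodes a calcium-binding protein. Both sets are descriptions over 15 libraries, in which MSCEPO replicate 3 holds the largest deviation of Dbp. The largest deviations of Arntl are those of DPSC replicate 2 (-0.29) and DPSC replicate 3 (0.20).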

How the data were processed

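Reads of 15 retina libraries had been quantified by the authors with Salmon 1.1.0 on the Rnor_6.0 transcriptome, summed to genes with tximport and transformed with DESeq2. The deposited values are the authors' rlog values on a log2 scale, without counts, so no interval or detection limit from depth was computed. A further 15 columns of per-sample values, a copy of the same values, were not used, nor was a column without a name that marks 88 genes. Sequences came from RefSeq windows of another build (GRCr8) and were matched by symbol.

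Groups were taken from the labels. Genes with a mean rlog of at least 3.32 (the log2 of 10) were fitted in limma 3.58.1 (R 4.3.3) with group means over all 15 libraries and a variance trend. P-values were adjusted by Benjamini-Hochberg over all 15424 genes for each of 10 comparisons, a call being an adjusted p under 0.05. The study's 2-fold threshold was an alternative, because rlog values are shrunken. Correlations used group-centred values and 100000 two-sided permutations in Python 3.11.15. Members and lists were chosen with earlier results of these data known. The text names all members, the 5 genes most like Arntl and Dbp, and up to 8 called genes of each list. A gene of each of 2 lists is not reported here and was left out of the list counts and means, though not of the fit. The script was tested on simulated data. The labels do not say that replicates came from separate rats, so p-values measure the spread between these samples. Alternatives were other filters, scalings, library weights, sets of libraries and a replicate block.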

Additional observations from a re-analysis of the deposited data

How the results depend on the processing

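The calls of Arntl in MSC and MSCEPO and of Cry1 in MSC against NT held under every alternative that kept the call rule. With 1 library left out in turn, the calls against NT ran from 2 to 4 in MSC, 2 to 3 in MSCEPO and 0 to 2 in DPSC, those over the 5 groups from 1 to 3, and those of all other comparisons stayed at 0. With the study's 2-fold rule 0 members were called in MSC (6.7% of all genes), 1 in MSCEPO (3.57%) and 0 in DPSC (0.784%). With only the 2 groups compared there were 2 calls in Sham (8.63% of all genes), 1 in MSCEPO (6.46%) and 1 in DPSC (2.58%). Median centring and quantile normalization each gave 1 in DPSC (2.79% and 1.95% of all genes). Array weights gave 5 in Sham, 6 in MSCEPO and 5 in DPSC against NT, beside 20.6%, 59.7% and 41.3% of all genes. They gave 3 in MSCEPO against Sham (29.7% of all genes), 6 in DPSC against MSCEPO (33.1%) and 7 over the 5 groups (60.8%). That method stopped before converging, with weights from 8.51e-05 to 15.1, and called 9212 genes in MSCEPO against NT in place of 1795. It also turned Dbp in DPSC against MSCEPO from -0.07 to 0.20. Gene-by-gene weights, added after seeing the data, gave 4, 6, 6 and 4 against NT in Sham, MSC, MSCEPO and DPSC, 2 in MSC and 2 in MSCEPO against Sham, and 5 over the 5 groups. The shares of all genes called were then 15.4%, 49.4%, 39.3% and 23.8% against NT. They were 18.1% in MSC and 7.16% in MSCEPO against Sham, where the 2 members were Arntl and Cry1, and 44.3% over the 5 groups. Without both outlying libraries there were 3 in Sham and 4 in DPSC. The cause of these changes was not tested. All genes called in Sham against NT numbered 137, against 1331 with these groups alone, 759 without both libraries and 78 after quantile normalization. Without centring, 4 members (Per1, Per2, Cry1 and Cry2) correlated with Arntl in place of 0. Uncentred values also hold the differences between groups, so these 4 do not show a relation inside the groups.

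A replicate block left the calls at 0 in Sham, 4 in MSC, 3 in MSCEPO, 2 in DPSC, 0 in each other comparison of 2 groups and 2 over the 5 groups. Deviations of same-numbered libraries correlated at -0.44 to 0.65 over 30 pairs, with 12 over 0.1, and in 13 of the 30 the same-numbered library was the closest of its group. In MSC with MSCEPO all 3 pairs were over 0.1 (0.160 to 0.279) and each closest by its own number, and the block left that comparison at 0 calls. In no other pair of groups were all 3 over 0.1, though in MSCEPO with DPSC they were -0.33, 0.40 and 0.65. Deviations from a mean of 3 libraries depend on each other. These correlations therefore cannot decide whether the numbers pair the samples in some of the groups.

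Of 437 recomputed values of the 26 member differences with an unadjusted p under 0.05 or without overlap, 373 kept their side of the threshold, 35 lost it, 29 gained it and 0 changed direction. Over all 1660 recomputed member values, 130 that were called in neither fit changed sign. Of 372 recomputed values of 22 called differences of the further lists, 88 lost the call and 0 changed direction. Depth is unknown from rlog values, so none of these results can be read against read counts.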
